A study of Mus musculus with 8 samples.

Results

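Plasmacytoid dendritic cells (pDC) are marked in the mouse by a small group of surface and secreted proteins, and 10 of their genes were followed here in cDC1, the type 1 conventional dendritic cells that cross-present antigen to CD8 T cells. The genes were chosen by name: Siglech, Klk1, Bst2, Ccr9, Ly6c2, Ly6d, Lair1, Pacsin1, Cd300c and Upb1. Of these 10, 9 had a probe set under their symbol in the platform annotation, 1 each, among 19505 named genes on the array. Cd300c had none under that symbol. Its neighbour Cd300c2, for which RefSeq lists Cd300c as an older name, is given apart and is not counted among the 9.

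The samples were splenic cDC1 of naive wild-type C57BL/6 mice, sorted by the signal of TMRM, a dye drawn into mitochondria by their membrane potential, relative to a signal that the labels call MG. There were 4 arrays of the TMRM/MG-high fraction and 4 of the TMRM/MG-low fraction, each numbered 1 to 4. No label says whether an array holds 1 animal or a pool, so the p-values reflect only how much these particular samples varied, and that variation may be technical. Values are log2 signals after RMA, a method that background-corrects, quantile-normalizes and summarises probes across arrays, and a difference of 1 is a doubling.

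pDC arise from progenitors shared with conventional dendritic cells and lymphoid cells, and make large amounts of type I interferon when TLR7 or TLR9 meets viral nucleic acid. The transcription factor TCF4 (E2-2), which binds E boxes, holds their identity. Siglech is the lectin used most often to identify mouse pDC, Bst2 encodes tetherin, the antigen of the pDC antibody PDCA-1, and Ccr9 encodes the gut-homing receptor for the chemokine CCL25. Some of these genes are also used by other cells: Bst2 is induced by interferon in many cell types, Ly6c2 is high in monocytes and Ly6d marks early B-lineage cells.

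RefSeq promoter windows (build GRCm38.p6) were matched by symbol for 8 of the 9 measured genes; Ly6d had no entry. Siglech, Klk1 and Lair1 lie on chromosome 7, Ly6c2 and Ly6d on 15, Bst2 on 8, Ccr9 on 9, Upb1 on 10 and Pacsin1 on 17. The start sites of the Siglech and Ly6c2 windows lie just inside the outermost annotated start of their gene. Those of Pacsin1 and Lair1 lie much farther inside. The Pacsin1 window ends at base 27685238 (plus strand), and the gene starts at 27655591. The Lair1 window begins at base 4063205 (minus strand), and the outermost start of the gene is at 4073567. The 250 bases before the start are printed for the 2 genes with the greatest difference and for the one with an interferon-type motif. Capitals mark CANNTG, the E box, in Siglech and Klk1, and the core of an interferon response element, GAAA repeated after 2 further bases, in Bst2.
Siglech, chr7:55767934-55768183, plus strand: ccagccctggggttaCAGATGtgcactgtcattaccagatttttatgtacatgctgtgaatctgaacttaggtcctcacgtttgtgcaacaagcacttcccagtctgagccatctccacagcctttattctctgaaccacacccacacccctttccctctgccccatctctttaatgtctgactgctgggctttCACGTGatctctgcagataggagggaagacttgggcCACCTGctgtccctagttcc
Klk1, chr7:44225110-44225359, plus strand: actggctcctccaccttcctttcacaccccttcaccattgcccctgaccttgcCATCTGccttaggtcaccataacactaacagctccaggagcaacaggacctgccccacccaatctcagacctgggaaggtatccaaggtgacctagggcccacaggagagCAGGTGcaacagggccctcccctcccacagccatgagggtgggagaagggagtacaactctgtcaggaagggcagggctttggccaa
Bst2, chr8:71537473-71537722, minus strand: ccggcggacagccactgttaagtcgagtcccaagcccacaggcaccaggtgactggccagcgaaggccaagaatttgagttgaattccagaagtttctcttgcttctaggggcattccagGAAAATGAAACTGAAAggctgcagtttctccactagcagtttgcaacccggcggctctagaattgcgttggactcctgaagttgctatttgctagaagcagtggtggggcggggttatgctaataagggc

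Both strands were searched for each motif in these windows. CANNTG was found in 6 of the 8 genes (Siglech, Klk1, Bst2, Ccr9, Ly6c2 and Lair1) and in 66.2% of all 32851 promoter windows. Its form CAGGTG, which is contained in CANNTG, was found in 4 genes (Siglech, Klk1, Bst2 and Ccr9) and in 17.2% of all windows. The interferon response element core was found in Bst2 alone of the 8, where its matches start 130 and 124 bases before the start site and overlap, and in 2.98% of all windows. The windows of Pacsin1 and Upb1 held none of these letters. These matches describe the sequence and do not show binding.

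In TMRM/MG-high cDC1, 8 of the 9 measured genes rose and none fell. The rises spanned 0.38 (1.3-fold) for Pacsin1 to 1.81 (3.5-fold) for Siglech, and Upb1 was the 1 gene that did not pass the test. Leaving out high replicate 2 or low replicate 1 brought the count to 5, with Ly6d, Lair1 and Pacsin1 lost. The count was 4 at a threshold of 0.01 and 0 with the level of the RNA spike-ins, which also separated the fractions, as a covariate (4 of the 9 at an unadjusted limma p under 0.05). Over all 22206 probe sets tested by limma, 5.28% were called higher and 2.96% lower at an adjusted p under 0.05. In 7 of the 9 genes every TMRM/MG-high array lay above every TMRM/MG-low array, against 9.70% of all probe sets, while 6.37% were separated in the opposite direction. The median difference of the 9 genes was 0.85, beside 0.0093 over all probe sets. These genes were picked with earlier results of these data known, so the counts describe them and are not independent support.

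**Figure D1:**
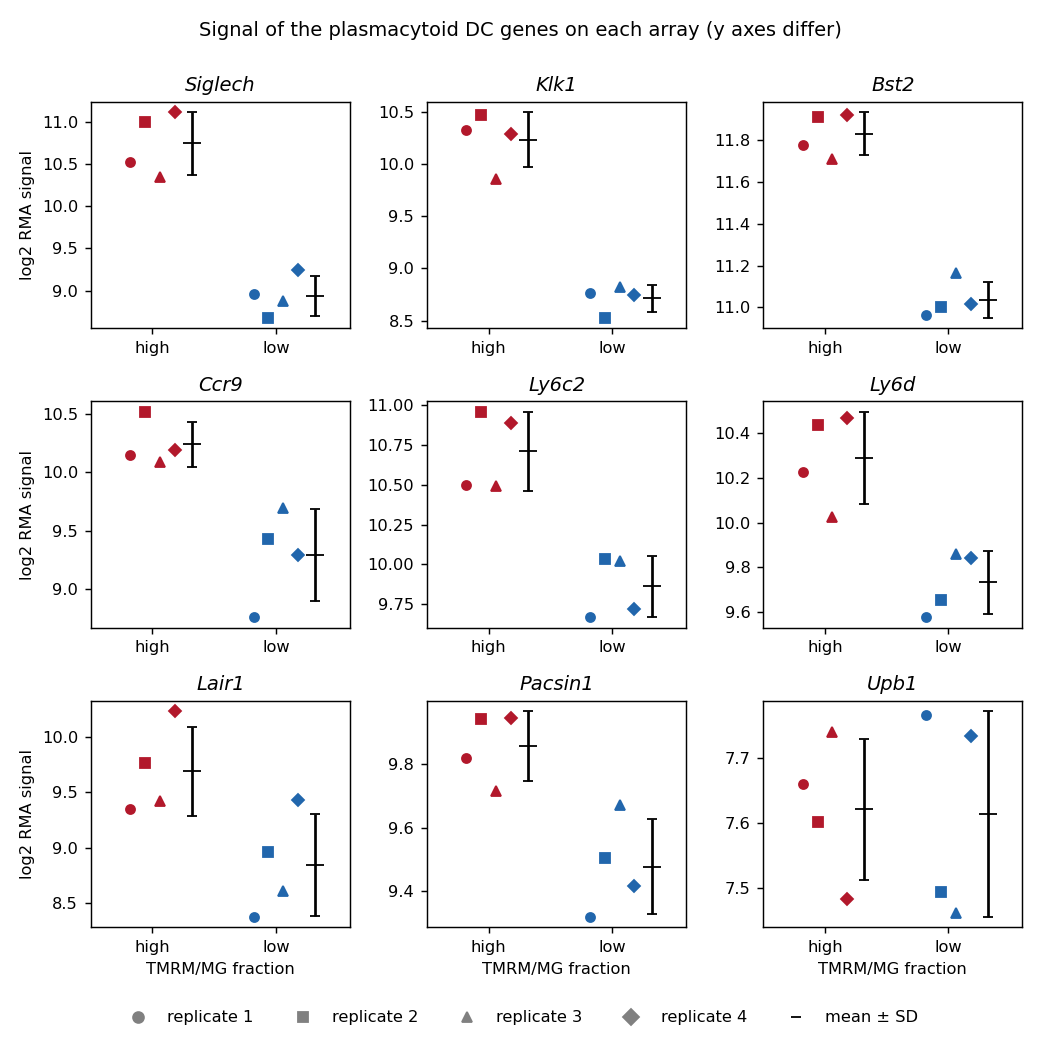
Log2 RMA signal (y axis, a separate scale for each gene) of the 9 measured genes on the 4 TMRM/MG-high arrays (red, left) and the 4 TMRM/MG-low arrays (blue, right), with symbols for replicate numbers and bars for mean ± SD. The fractions do not overlap for 7 genes, in Lair1 the low replicate 4 lies above 2 of the high arrays, and in Upb1 the ranges overlap.

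Siglech encodes a sialic-acid-binding-type lectin that signals through the adaptor DAP12 and restrains interferon release by pDC. Its log2 signal was 10.53, 11.00, 10.34 and 11.11 on TMRM/MG-high arrays 1 to 4, against 8.96, 8.68, 8.87 and 9.24 on TMRM/MG-low arrays 1 to 4. The lowest high array stood 1.1 above the highest low array. Siglech rose by 1.81 (SE 0.17, 95% interval 1.43 to 2.18, limma adjusted p = 0.00062), to a mean of 10.74 ± 0.37 in the high fraction, against 8.94 ± 0.23 in the low fraction (SD, n = 4 each). The call held when any 1 array was left out, with differences of 1.68 to 1.94.

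Klk1 encodes tissue kallikrein, a serine protease that releases kinins, and its transcript is found in mouse pDC. Its signal was 10.33, 10.47, 9.85 and 10.28 on the high arrays, against 8.76, 8.53, 8.82 and 8.74 on the low arrays. High array 3 was the lowest of its fraction and was still 1.03 above the highest low array. Klk1 rose by 1.52 (SE 0.13, 95% interval 1.24 to 1.79, limma adjusted p = 0.00042), a 2.86-fold difference.

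Klk1 lies in a cluster of closely related kallikrein genes on chromosome 7, whose probes may share target sequence. Of 11 Klk1b relatives measured, Klk1b5 rose by 0.72 (SE 0.083, adjusted p = 0.0013) and Klk1b27 by 0.51 (SE 0.11, adjusted p = 0.018), and the other 9 did not pass, at -0.25 to 0.31. The value of Klk1 is uncertain to the extent that such transcripts are read by its probes, which was not tested.

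Bst2 encodes a membrane protein that tethers budding virions to the cell. Its signal was 11.78, 11.91, 11.71 and 11.92 on the high arrays, against 10.97, 11.00, 11.16 and 11.02 on the low arrays. It had the smallest SD of the 8 genes that rose, in both fractions (0.10 in the high and 0.086 in the low), and it rose by 0.79 (SE 0.086, limma adjusted p = 0.0010), a 1.73-fold difference.

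Ccr9 guides pDC and thymocyte precursors towards CCL25. Its signal was 10.15, 10.52, 10.09 and 10.19 on the high arrays, against 8.76, 9.43, 9.69 and 9.29 on the low arrays. The fractions did not overlap, and the spread was wider in the low fraction, where array 1 was the lowest. Ccr9 rose by 0.94 (SE 0.17, 95% interval 0.57 to 1.32, limma adjusted p = 0.012). Ccl25, the gene of its ligand, differed by 0.29 (SE 0.10, adjusted p = 0.11) and did not pass.

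Ly6c2 and Ly6d encode small glycolipid-anchored surface proteins of the Ly6 family, and both genes lie on chromosome 15. Ly6c2 had signals of 10.50, 10.96, 10.49 and 10.89 on the high arrays, against 9.67, 10.03, 10.02 and 9.72 on the low arrays, and rose by 0.85 (SE 0.13, limma adjusted p = 0.0068). Ly6d had signals of 10.23, 10.44, 10.02 and 10.47 on the high arrays, against 9.58, 9.65, 9.86 and 9.84 on the low arrays, and rose by 0.55 (SE 0.11, limma adjusted p = 0.017). The closest arrays were 0.46 apart for Ly6c2 and 0.16 apart for Ly6d. The near-identical gene Ly6c1 also rose, by 0.72 (SE 0.12, adjusted p = 0.0079), and its group-centred values followed those of Ly6c2 (r = 0.89 over 8 arrays, described with no test), so the array may not tell the pair apart. The call of Ly6d was lost without high replicate 2 (0.51, adjusted p = 0.060) and without low replicate 1 (0.50, adjusted p = 0.0502).

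Lair1 encodes an inhibitory receptor for collagen, and Pacsin1 an adaptor of endocytosis and the cytoskeleton that human and mouse pDC need for a full interferon response to TLR9 ligands. Lair1 had signals of 9.34, 9.76, 9.42 and 10.23 on the high arrays, against 8.37, 8.96, 8.61 and 9.43 on the low arrays. The highest low array, replicate 4, lay above the high replicates 1 and 3. Lair1 rose by 0.85 (SE 0.23, 95% interval 0.35 to 1.34, limma adjusted p = 0.043). The replicate numbers stood in the same order in both fractions for Lair1, with replicate 4 highest and replicate 1 lowest.

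Pacsin1 had signals of 9.82, 9.94, 9.72 and 9.94 on the high arrays, against 9.32, 9.50, 9.67 and 9.42 on the low arrays. It rose by 0.38 (SE 0.097, limma adjusted p = 0.036), and the closest arrays were 0.045 apart. Its relatives Pacsin2 (0.017) and Pacsin3 (-0.074) did not pass. The calls of Lair1 and Pacsin1 each held in only 2 of the 8 fits that left out 1 array, with adjusted p up to 0.11 for both.

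Upb1 encodes beta-ureidopropionase, the last enzyme of pyrimidine breakdown. Its signal was 7.66, 7.60, 7.74 and 7.48 on the high arrays, against 7.77, 7.49, 7.46 and 7.73 on the low arrays, and the fractions overlapped. The difference was 0.0077 (SE 0.099, 95% interval -0.21 to 0.22, limma adjusted p = 0.97). Its low-fraction mean lay 0.85 above the median of the negative controls, the nearest of the 9 genes, against 1.95 or more for the others. Dpyd and Dpys, the earlier enzymes of the pathway, differed by -0.35 (adjusted p = 0.054) and -0.15 (adjusted p = 0.33).

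Cd300c2, an activating receptor gene of the CD300 family, had signals of 11.47, 11.54, 11.56 and 11.67 on the high arrays, against 11.37, 11.42, 11.56 and 11.53 on the low arrays. It did not pass (0.089, SE 0.083, 95% interval -0.091 to 0.27, adjusted p = 0.55). None of the other 6 CD300 genes measured was called, and 0 of those 6 had an unadjusted limma p under 0.05.

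**Figure D2:**
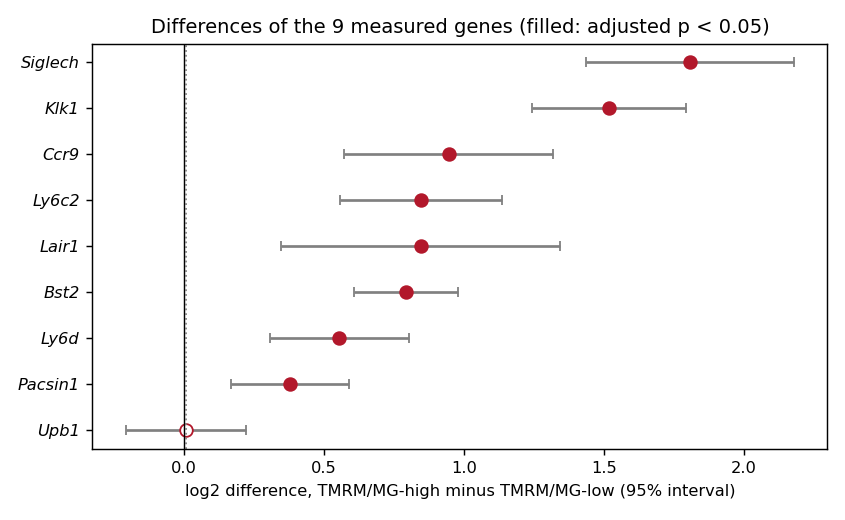
Log2 difference, TMRM/MG-high minus TMRM/MG-low (x axis), of the 9 measured genes with 95% intervals from limma; filled points have an adjusted p under 0.05 and the dotted line is the median of all probe sets. Siglech at 1.81 and Klk1 at 1.52 lie to the right of the other 7, and the interval of Upb1 spans 0.

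Whether the genes varied together was asked within the fractions, by subtracting each gene's fraction mean and correlating the 8 remaining values. With 4 arrays a fraction, no correlation was computed inside a single fraction. All 28 pairs among the 8 genes that rose correlated above 0, with a median r of 0.66. Not all 28 stayed above 0 without the 2 arrays farthest from the median of a pair's first gene. These arrays were picked on signals before centring, so they need not be those that deviated most within fractions. Siglech and Ly6c2 went from r = 0.39 to -0.71, Ccr9 and Lair1 from 0.29 to -0.46, and Lair1 and Pacsin1 from 0.29 to -0.39. Siglech with Pacsin1 (-0.27) and with Ccr9 (-0.23), and Lair1 with Bst2 (-0.11) and with Ly6c2 (-0.044), also went below 0. The remaining pairs, such as Bst2 and Pacsin1 (0.93 in both), stayed above 0. All 8 pairs that include Upb1 were below 0, with a median r of -0.64, and the median over the 36 pairs was 0.45. Each member's median r with all tested probe sets was -0.035 to 0.054. These values spread widely, with quartiles of -0.44 and 0.41 for Ly6c2. The share of all tested probe sets with r of at least 0.7 was 2.15% for Klk1, the lowest, to 9.02% for Ccr9, the highest.

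The tightest pairs were Bst2 with Pacsin1 and with Ly6d. Bst2 and Pacsin1 had r = 0.93 (exact permutation p = 0.0052, adjusted 0.047 over 36 pairs) and rho = 0.90 (exact p = 0.012, adjusted 0.13), and r was 0.93 without the 2 arrays farthest from the median of Bst2. Bst2 and Ly6d had r = 0.91 (exact permutation p = 0.0017, adjusted 0.047) and rho = 0.90 (exact p = 0.0035, adjusted 0.063), and r was 0.79 without the 2 farthest arrays. Arrays were permuted within fractions, two-sided, and 0.0017 is the smallest p that the 576 arrangements can give.

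Ccr9 and Ly6c2 had r = 0.73 (exact permutation p = 0.0052, adjusted 0.047) and rho = 0.69 (exact p = 0.017, adjusted 0.13), and r was 0.60 without the 2 farthest arrays. Pacsin1 and Upb1 went opposite ways, with r = -0.90 (exact permutation p = 0.0052, adjusted 0.047) and rho = -0.95 (exact p = 0.0017, adjusted 0.063), and r was -0.82 without the 2 farthest arrays. These 4 pairs were the ones with an adjusted p of r under 0.05, and no pair had an adjusted p of rho under 0.05.

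Siglech, with the greatest difference between fractions, was close to Ly6d (r = 0.81, exact permutation p = 0.061, adjusted 0.19; rho = 0.76, exact p = 0.076, adjusted 0.20; r = 0.51 without the 2 farthest arrays). It was not close to Ccr9 (r = 0.10, exact permutation p = 0.77, adjusted 0.79; rho = 0.17, exact p = 0.68, adjusted 0.72; r = -0.23 without the 2 farthest arrays). Klk1 and Lair1 also varied apart (r = 0.11, exact permutation p = 0.82, adjusted 0.82; rho = -0.095, exact p = 0.84, adjusted 0.86; r = 0.32 without the 2 farthest arrays).

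**Figure D3:**
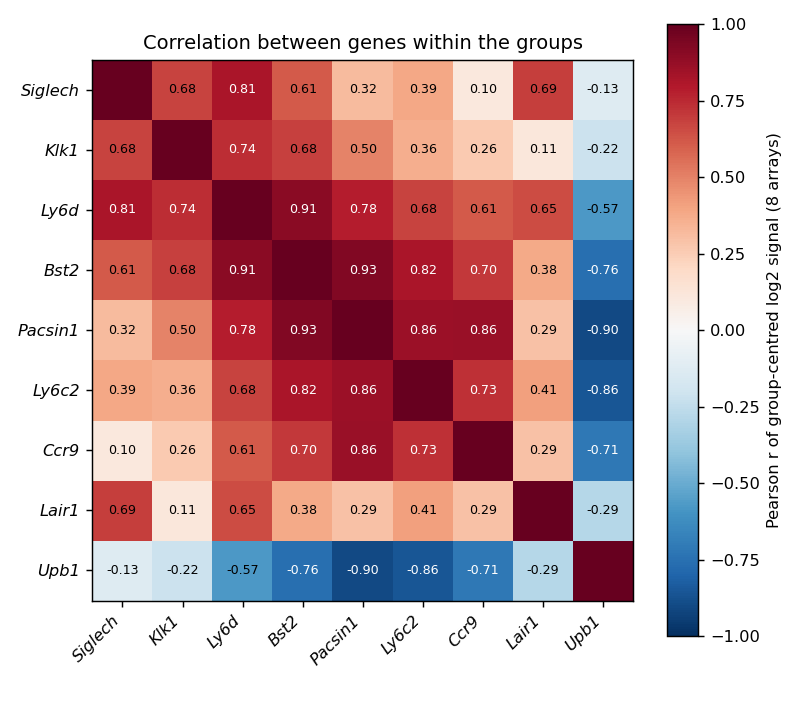
Pearson r between the group-centred log2 signals of each pair of the 9 genes over 8 arrays (colour scale from -1 to 1). The 8 genes that rose correlate above 0 with each other, from 0.10 for Siglech and Ccr9 to 0.93 for Bst2 and Pacsin1, and the Upb1 row is below 0 throughout.

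The shared variation could be read array by array. All 8 genes that rose lay above their fraction mean on high replicate 2 and all 8 lay below it on high replicate 3. On high replicate 4, 7 of the 8 were above the mean, with Ccr9 as the exception, and on high replicate 1, 1 of the 8 was (Klk1). In the low fraction, 6 of the 8 were below the mean on replicate 1 and 6 were above it on replicate 3. The mean signal of the 8 genes was 10.33, 10.62, 10.21 and 10.63 on the high arrays, against 9.30, 9.47, 9.59 and 9.59 on the low arrays. The 8 were called higher by the same comparison, so the separation of their mean is no further support.

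These deviations moved with some features of the whole array. The mean deviation of the 8 genes correlated at r = -0.34 with the deviation of the RNA spike-in level and at r = -0.34 with that of the median tested signal. It correlated at r = 0.77 with the deviation of the negative control median. With the first principal component of all group-centred probe sets, which held 29.3% of that variance, r was -0.75 (8 arrays, descriptions with no test). With that component removed, 24 of the 28 pairs were above 0, with a median r of 0.46, against 0.66 before removal. Over all 36 pairs the median r was 0.22, against 0.45 before removal. The pairs with Upb1 were then no longer all below 0, with r = 0.21 for Siglech and r = 0.16 for Lair1. The part of array quality in the correlations was not tested further.

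**Figure D4:**
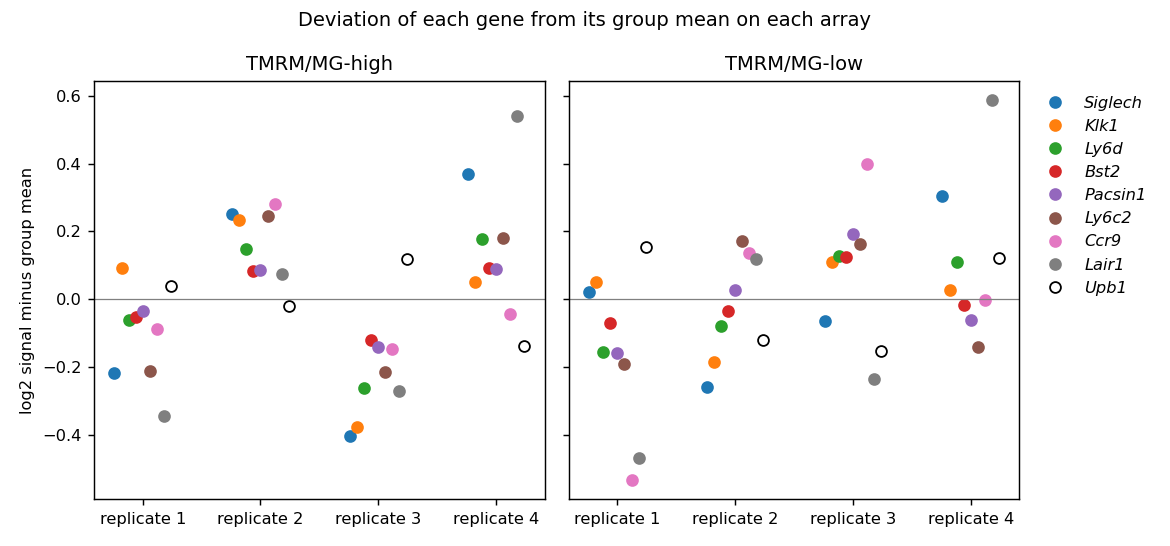
Log2 signal minus the fraction mean (y axis) of each gene on TMRM/MG-high arrays 1 to 4 (left) and TMRM/MG-low arrays 1 to 4 (right). On high replicate 2 the 8 genes that rose are all above 0, on high replicate 3 all below, and Upb1 (open circles) is on the other side of 0 in both.

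The named genes whose group-centred pattern was most like the mean of the 9 were Serp1 (r = 0.98), Rps18 (r = 0.97) and Cldn5 (r = 0.97), over 8 arrays. None of the 3 differed between fractions by the test (0.25, 0.061 and 0.22, adjusted p = 0.095, 0.67 and 0.21). For Siglech alone they were Mrpl1 (r = 0.98), Mettl6 (r = 0.97) and Ppif (r = 0.97), also uncalled. These are the top 3 of 14753 named genes compared over 8 values, and are given as a description.

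Other genes of pDC, with a few transcription factors of conventional dendritic cells, were measured beside the 9, and together 8 of 52 rose and 1 fell (5 rose without high replicate 2, low replicate 1 or low replicate 2, and 2 fell without low replicate 3). Among 24 further surface and secreted genes, 5 rose and 1 fell, with a median difference of 0.17. The 4 with the smallest p were Cd209d, a C-type lectin gene (1.83, SE 0.21, adjusted p = 0.0012), Ctsl, a lysosomal protease gene (0.87, SE 0.11, adjusted p = 0.0018), Havcr1, which encodes the phosphatidylserine receptor TIM-1 (1.82, SE 0.25, adjusted p = 0.0034), and Atp1b1, a sodium pump subunit gene (0.98, SE 0.17, adjusted p = 0.010). Dntt, the fifth, rose by 0.74 (adjusted p = 0.019), though its means (6.56 for TMRM/MG-high, 5.81 for TMRM/MG-low) were under the medians of the negative controls, and Ptprs, a phosphatase gene of pDC, was the one that fell, by 0.52 (adjusted p = 0.011). The other 18 of the 24 were not called, with Pld4 (0.019), Rnase6 (-0.024) and Ptcra (0.077) among them. At an unadjusted limma p under 0.05, 12 of the 24 were higher and 2 lower. Dntt, Ptprs, Pld4, Rnase6 and Ptcra were named after their values were seen.

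Cd209d had signals of 8.94, 8.86, 8.44 and 9.41 on the high arrays, against 6.71, 7.42, 6.82 and 7.39 on the low arrays, with no overlap. Its group-centred values correlated with those of Siglech at r = 0.51 (8 arrays, no test).

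Of 13 transcription factor genes of dendritic cells, 9 listed for pDC and 4 for conventional dendritic cells (Nfil3, Id2, Batf3 and Zbtb46; Irf8, among the 9, serves both), 3 rose and 0 fell, and 0 of the 13 were lower at an unadjusted limma p under 0.05. Tcf4 had signals of 11.49, 11.63, 11.39 and 11.71 on the high arrays, against 11.18, 11.19, 11.09 and 11.17 on the low arrays, and rose by 0.40 (SE 0.089, adjusted p = 0.023). Within fractions Tcf4 correlated at r = 0.80 with Siglech and at r = 0.54 with Bst2 (8 arrays, descriptions with no test). Zbtb10 (0.58, adjusted p = 0.015) and Nfil3 (0.35, adjusted p = 0.044) rose as well, so that 2 of the 3 were from the pDC side and 1 from the conventional side. Irf7, the interferon regulator that controls much of the pDC response, did not pass (-0.0087, adjusted p = 0.97). Within fractions Irf7 correlated with Bst2 at r = 0.87 (8 arrays, no test). Of all tested probe sets, 5.88% had r of at least 0.7 with Bst2 and 3.58% with Siglech.

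Genes of the nucleic acid sensing and type I interferon route were not called, at 0 of 15 by limma, with 2 higher and 2 lower at an unadjusted p under 0.05. The 2 with the smallest p were Ifnar2, a chain of the interferon receptor (0.21, adjusted p = 0.12), and the interferon gene Ifna5 (-0.34, adjusted p = 0.15). Tlr7 had the largest difference of the list (0.54, SE 0.24, adjusted p = 0.18). The means of Ifna4 (4.49 for TMRM/MG-high, 4.55 for TMRM/MG-low) were under the medians of the negative controls. Signalling partners of the 9 genes, among them the DAP12 gene Tyrobp (0.065, adjusted p = 0.66), also had 0 of 20 called, with 2 higher and 2 lower at an unadjusted p under 0.05. Among 39 family relatives 4 rose: Klk1b5, Ly6c1 and Klk1b27 above, and the chemokine receptor gene Ccr2 (0.51, adjusted p = 0.028).

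**Figure D5:**
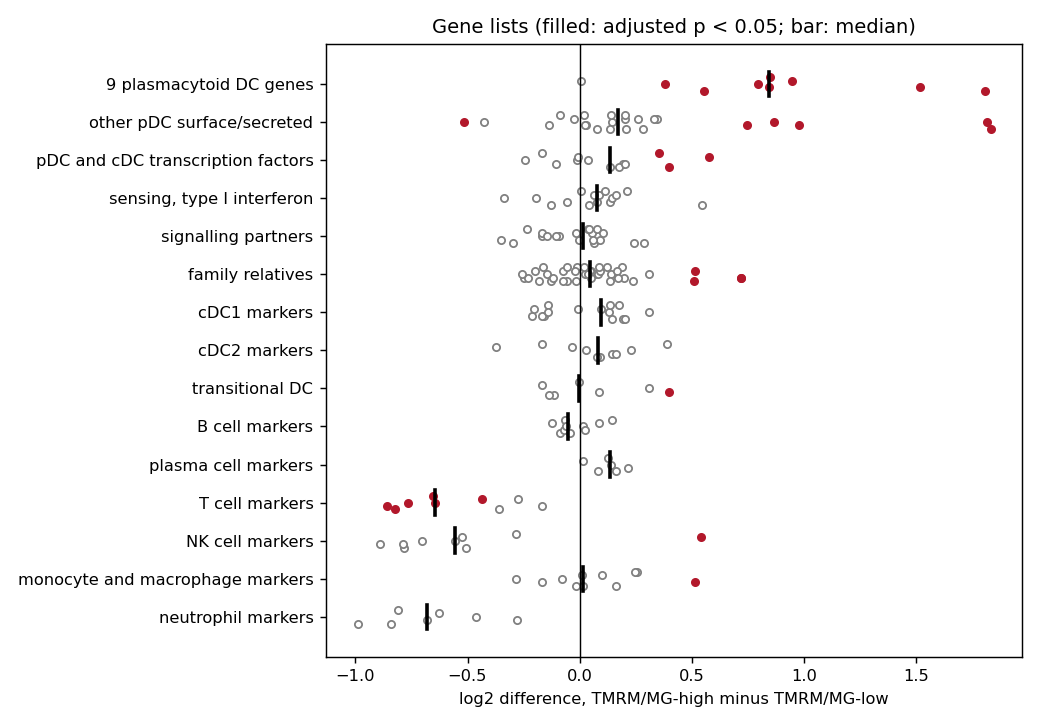
Log2 difference, TMRM/MG-high minus TMRM/MG-low (x axis), of each gene in the 9 measured genes and in 14 other gene lists; filled points have an adjusted p under 0.05 and black bars are medians. The median of the 9 genes is 0.85, those of the other pDC surface and secreted genes, the transcription factors, and the cDC1, cDC2 and B cell markers lie between -0.053 and 0.17, and T cell, NK cell and neutrophil markers have medians of -0.64, -0.55 and -0.68.

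Markers of other cells in the spleen were measured beside these genes. Among cDC1 markers 0 of 15 were called by limma (2 higher and 1 lower at an unadjusted p under 0.05); the definers Xcr1, Clec9a, Batf3 and Irf8 differed by 0.14, -0.21, 0.20 and -0.17. Every high array lay above every low array for 2 of the 15 and below for 3, against 9.70% and 6.37% of all probe sets. The summed log2 signal of the cDC1 list, in which opposite shifts can cancel, was 175.5 to 177.8 in the high and 174.6 to 178.1 in the low arrays. B cell markers had 0 of 10 called and 0 at an unadjusted limma p under 0.05. Their summed signals were 96.8 to 100.7 in the high and 96.9 to 100.6 in the low arrays. Monocyte and macrophage markers had 1 of 11 called, Ccr2, with sums of 104.8 to 108.7 in the high and 105.1 to 106.9 in the low arrays.

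T cell markers fell in 6 of 9 genes, with sums of 77.2 to 79.2 in the high and 79.4 to 84.6 in the low arrays. NK cell markers had 1 of 9 called, Klrk1, which rose by 0.54 (adjusted p = 0.026). The other 8 had differences of -0.89 to -0.28, and 6 of them were lower at an unadjusted limma p under 0.05; the sums were 77.3 to 84.2 in the high and 79.8 to 88.6 in the low arrays. Neutrophil markers had 0 of 7 called by limma, with a median of -0.68 and 2 lower at an unadjusted p under 0.05, and sums of 58.2 to 67.6 in the high and 64.5 to 73.0 in the low arrays. Plasma cell markers had 0 of 6 (0 also at an unadjusted p under 0.05). No T, NK, B cell, monocyte or neutrophil marker measured had its mean below the negative control median. That alone does not show that these transcripts were detected, and the part of such cells in the results was not tested. In sorted cells, more pDC among the cells and more of each transcript per cDC1 cannot be told apart by these arrays.

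The poly-A spike-ins, control RNAs added to each sample, also separated the fractions, with a mean log2 signal of 5.99 to 6.96 in the high and 7.27 to 7.85 in the low arrays. With this level as a covariate limma called 0 of the 9 genes and 0 of all 22206 probe sets. The differences stayed above 0 for all 9 genes, at 1.62 (SE 0.28) for Klk1, 1.47 (SE 0.37) for Siglech and 0.68 (SE 0.19) for Bst2, and 4 of the 9 had an unadjusted p under 0.05. The hybridization controls separated the fractions too. Their mean log2 signal was 11.74 to 11.90 in the high and 12.30 to 12.61 in the low arrays. They were not used as a covariate. Neither the spike-in level nor that of the hybridization controls can be told apart from the fraction in this design.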

How the data were processed

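Total RNA of the sorted cells was labelled with biotin by the Affymetrix Whole Transcript Plus kit, per the labels, and hybridised to 8 arrays. The deposited values are log2 signals made by the authors with RMA in Affymetrix Expression Console 1.1, per the submitters' processing notes. The sources used here name no genome build for the arrays. RMA removes a shift shared by most transcripts, so each difference is measured against the bulk of the array. No depth exists for arrays, and their number limits the precision.

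Of 28846 rows, 6640 control probe sets were left out and 22206 tested, of which 19572 had 1 gene symbol and 2634 had none. The symbols were matched to RefSeq by Entrez ID. The fractions were compared with lmFit and eBayes of limma 3.58.1 (R 4.3.3) in a two-sided test that had no block, and p-values were adjusted by Benjamini-Hochberg over all 22206 at a threshold of 0.05. The median negative control read 6.86 in TMRM/MG-high and 6.76 in TMRM/MG-low. Correlations used values centred on the fraction mean, with exact permutation p-values adjusted over 36 pairs. The design counted pairs over all 10 genes, and 9 were measured. Both procedures were tested on simulated data.

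The members and lists were chosen with earlier results of these data known. Named were the members, up to 4 called genes of each pathway list by smallest p (for lists with none called, up to 2), Xcr1, Clec9a, Batf3, Irf8, and the 3 genes of most similar pattern. A few others are given for context. Alternatives were the replicate number as a block, 2 other scalings, a robust fit with an intensity trend, a filter on dim probe sets, array weights, 1 probe set per gene, a threshold of 0.01, a spike-in covariate, and leaving out each array; for the correlations also ranks and removal of the first principal component. Same-numbered arrays were not taken as pairs, since the labels state no pairing. Their deviations correlated at 0.27, 0.055, 0.015 and 0.039, against -0.29 to 0.17 for arrays of different number. These values do not settle whether the numbers mark pairs. Figures were drawn with matplotlib 3.10.9.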

Additional observations from a re-analysis of the deposited data

How the results depend on the processing

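Siglech, Klk1, Bst2, Ccr9 and Ly6c2 kept their call under every alternative run, with 2 exceptions: the spike-in covariate for all 5, and the threshold of 0.01 for Ccr9 (adjusted p = 0.012). With that covariate 0 of the 9 genes were called (4 at an unadjusted p under 0.05), and the limma differences were 1.47 for Siglech, 1.62 for Klk1, 0.68 for Bst2, 0.63 for Ccr9, 0.65 for Ly6c2, 0.38 for Ly6d, 0.33 for Lair1 and 0.28 for Pacsin1, with adjusted p of 0.68 to 1.0. The other dendritic cell genes (pDC surface, secreted and sensing genes, and transcription factors) then had 0 called higher and 0 lower, against 8 and 1 of 52 without it (8 had an unadjusted p under 0.05). The cause was not tested. The call of Pacsin1 was lost with the replicate block (0.38, adjusted p = 0.054) and after centring on array medians (0.36, adjusted p = 0.051), and that of Lair1 after quantile normalization (0.79, adjusted p = 0.056) and with array weights (0.74, adjusted p = 0.053). With the replicate block the median within-fraction r of the 36 pairs was 0.62, and 2 of the other dendritic cell genes were called lower, as after quantile normalization (2). The block changed no other member's call, and the numbers are not known to pair the samples. Lair1 had a limma adjusted p of 0.0040 with the block, against 0.043 without it. The difference of Upb1 was -0.0061 after centring on array medians. At a threshold of 0.01, 4 genes were called (Siglech, Klk1, Bst2 and Ly6c2).

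Leaving out 1 array at a time gave 5 to 8 genes called, with 5 without high replicate 2 and 5 without low replicate 1. Differences were 1.68 to 1.94 for Siglech, 1.44 to 1.64 for Klk1, 0.76 to 0.83 for Bst2, 0.77 to 1.08 for Ccr9, 0.77 to 0.92 for Ly6c2, 0.50 to 0.64 for Ly6d, 0.66 to 1.04 for Lair1, 0.33 to 0.44 for Pacsin1 and -0.043 to 0.059 for Upb1. Other dendritic cell genes called were 5 to 9 higher (5 without high replicate 2, low replicate 1 or low replicate 2) and 1 to 2 lower (2 without low replicate 3). A smaller group also gives less power. The median r was 0.31 to 0.61 in these omissions, 0.22 with the first principal component removed, and 0.40 to 0.62 under the other settings.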
